A study of Drosophila melanogaster with 8 samples.

Results

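Dopamine is made from tyrosine by a short enzymatic pathway, is packed into vesicles by a transporter, is cleared after release, and acts on target cells through G protein-coupled receptors. In Drosophila the same enzymes also supply dopamine to the cuticle, where it is used for hardening and pigment, and in the larval brain a small number of neurons make it. The 10 genes described here, of 17162 in the deposited counts, were chosen by name for these roles, with no measured value used. They are ple, Pu and Ddc for synthesis, e for conjugation of dopamine to β-alanine, Vmat and DAT for transport, and Dop1R1, Dop1R2, Dop2R and DopEcR for reception.

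RNA was sequenced from brains of STIM KO larvae at 72 to 76 h after egg laying (AEL) and of CS larvae at 58 to 62 h AEL, with 4 libraries of pooled brains per genotype. STIM KO is a CRISPR-Cas9 null allele of Stim, which encodes the calcium sensor of the endoplasmic reticulum, carried in all cells throughout development. CS, the wild type, is Canton S. The ages were chosen by the study so that both genotypes were at a comparable stage of the second instar, so genotype and age in hours differed together and cannot be told apart.

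Each library held 395680 to 2090717 reads counted on transcripts. In both genotypes replicates 1 and 2 stood apart from replicates 3 and 4, with 9.89% to 18.0% against 33.5% to 34.5% of reads called ambiguous. The labels name no batch, and these pairs of replicates are called library sets below. Of the Stim transcripts, NM_001298380.1 had 0 counts in all 4 STIM KO libraries, against 2, 3, 6 and 9 counts in CS replicates 1 to 4. NM_206747.3 had 14, 19, 3 and 2 counts in STIM KO, against 4, 1, 6 and 5 in CS. The neuronal marker elav was counted in all libraries (CPM, counts scaled to a common library total). It was at 1028, 1107, 266 and 252 CPM in STIM KO replicates 1 to 4, and at 1263, 780, 151 and 149.6 CPM in CS. In both genotypes replicates 1 and 2 were thus above replicates 3 and 4 for elav, as they were for Syt1, para and futsch. The marker nSyb had the opposite order in both genotypes. It was at 39.9, 43.7, 128 and 92.4 CPM in STIM KO, against 19.2, 4.04, 62.3 and 38.8 CPM in CS. For brp the library sets overlapped in STIM KO. Of the 7 neuronal markers listed, Cadps had 1 count over all libraries.

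The counts of most dopamine genes covered only a small part of the gene. Of the 33 member transcripts in the files, 12 had a count in any library and 21 had none. For each of the 10 genes, the number of transcripts with counts equalled the number of annotated transcripts that hold exon bases found in no other transcript of that gene. Over 7344 genes of 2 or more transcripts with the same span and number of transcripts in both annotations, the number of counted transcripts never exceeded the number with such bases. All 362 of these genes in which no transcript had bases of its own were at 0 counts in every library, while 73.2% of the 6982 genes with such bases had a count. Values given per gene below are therefore counts on the bases of single transcripts and not totals of the gene, except for e, which has 1 transcript.

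**Figure D1:**
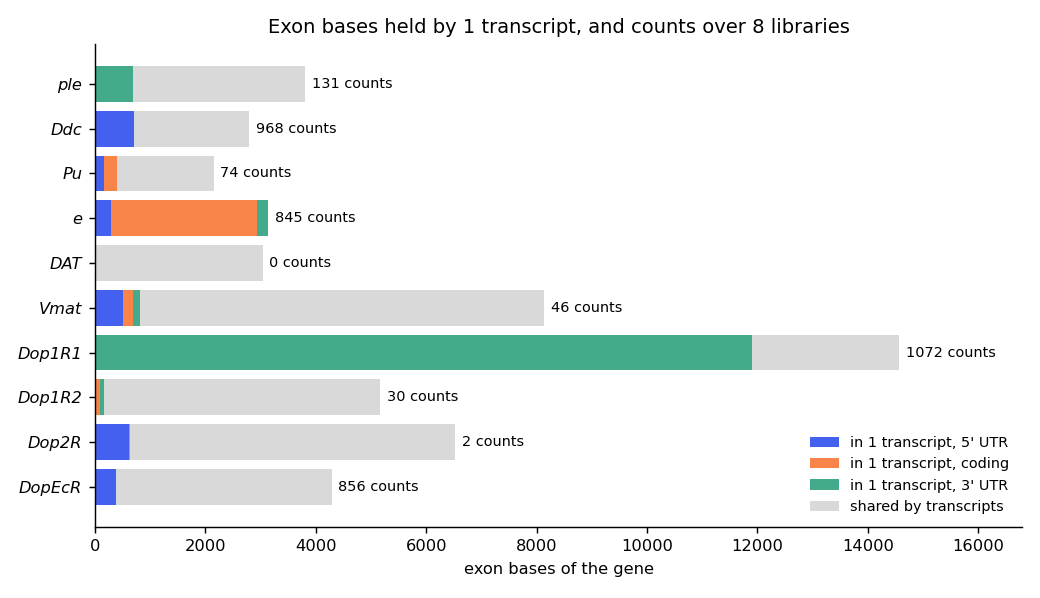
Exon bases of each dopamine gene (horizontal axis, bases), divided into bases held by 1 transcript (coloured by their place in that transcript) and bases shared by several transcripts (grey), with the counts summed over the 8 libraries at the end of each bar. DAT has 0 bases of its own and 0 counts, Dop1R1 has 11904 of 14565, and e has all 3142.

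The positions of these bases differed between the genes (dm6 assembly, Ensembl models). In ple, on chromosome 3L from 6713356 to 6719525, 682 of 3806 exon bases belong to 1 transcript and lie at the far end of its 3′ UTR, from 6713356 to 6714037. In Dop1R1, on 3R from 14165379 to 14214810, the 11904 bases are a long 3′ UTR from 14165379 to 14177282. In Ddc, on 2L from 19116483 to 19120306, the 712 bases are 5′ UTR and all lie within introns of another Ddc transcript. In DopEcR, on 3L from 4367649 to 4380387, the 381 bases are also 5′ UTR and lie within an intron of another transcript. RNA of such a transcript and unspliced RNA of another cannot be told apart in these bases.

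The remaining genes, other than e, had between 0 and 809 such bases. Pu (2R, 21175315 to 21182608) has 408 of 2152 exon bases in single transcripts and Vmat (2R, 13513132 to 13534251) has 809 of 8134. Dop1R2 (3R, 29630304 to 29659984) has 174 of 5164, and Dop2R (X, 20004680 to 20062706) has 634 of 6530. All of these bases in Dop1R2 and Dop2R, and 664 of the 809 in Vmat, lie within introns of another transcript of the gene, so the same limit holds for them. DAT, the plasma membrane dopamine transporter (2R, 16558567 to 16565238), has 0 of 3040. Its 2 transcripts had 0 counts in the 4 STIM KO and the 4 CS libraries. At the depth of a library 0 counts allow 3 counts or 1.25 to 9.62 CPM, but with no base open to counting this sets no upper limit for DAT. Its level could not be read from these counts. The gene e (3R, 21229839 to 21237177) is covered whole. No base counted here as held by 1 transcript overlaps an exon of another gene.

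Counts per gene were compared with edgeR's quasi-likelihood test over the 5538 genes that passed its filter on low counts. Of these, 0 genes (0.0%) had an adjusted p under 0.05 and 361 (6.52%) had an unadjusted p under 0.05. The numbers of genes with an adjusted p under 0.05 were 78 by DESeq2 and 35 by limma voom. In edgeR they were 16 with the replicate number as a block and 39 (0.704%) when the fit held a term for the library set. Of the dopamine genes, ple, Ddc, e, Dop1R1 and DopEcR passed the filter. None of these 5 had an adjusted p under 0.05 in any of these fits, and none had an unadjusted p under 0.05 in the fit without the set. With the set as a term, Dop1R1 and DopEcR had an unadjusted p under 0.05, which 17.0% of all genes tested had. In none of the 5 were the genotypes apart over all 8 libraries, as they were for 6.25% of the genes tested. Since whole brains were measured, fewer cells of a type and less RNA per cell cannot be told apart.

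**Figure D2:**
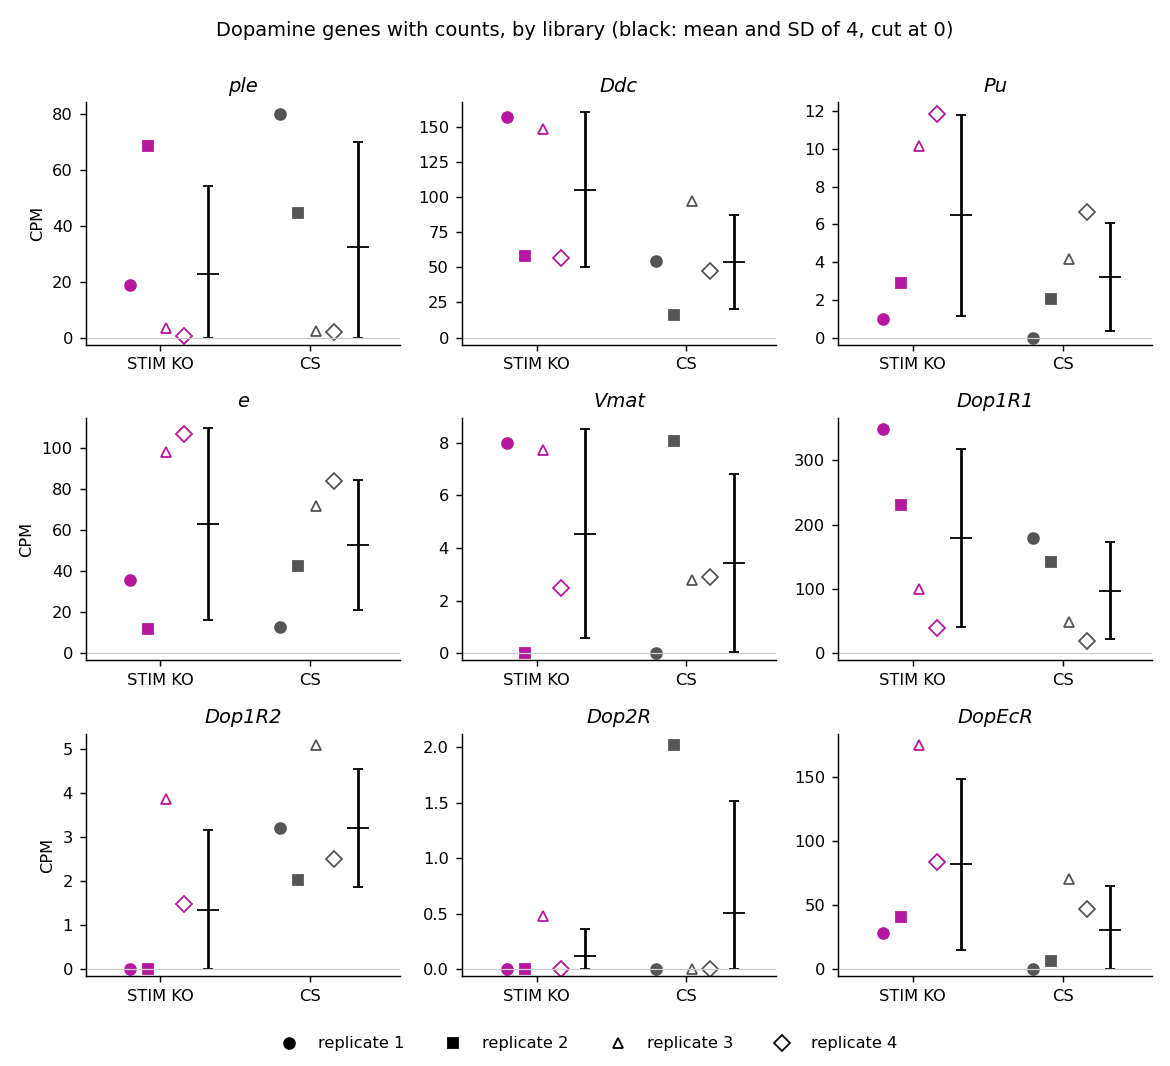
CPM of the 9 dopamine genes with counts (vertical axes, 1 scale per gene) in STIM KO and CS libraries, with filled symbols for replicates 1 and 2, open symbols for replicates 3 and 4, and the mean and SD of 4 libraries in black, cut at 0. ple and Dop1R1 are highest in replicates 1 and 2, while Pu, e and DopEcR are highest in replicates 3 and 4, in both genotypes.

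Among the synthesis enzymes, none passed the test between the genotypes. Ddc and Pu were higher in STIM KO than in CS in all 4 pairs of the same replicate number, as were 15.9% of the genes tested. Pu did not pass the filter for these genes, so that share does not describe genes at its count level. Libraries of the same number share a library set, and no label pairs them. The gene ple encodes tyrosine hydroxylase, the rate-limiting enzyme of dopamine synthesis, and its counts came from the transcript NM_001300026.1. There were 19, 47, 7 and 1 counts in STIM KO replicates 1 to 4, against 25, 22, 5 and 5 in CS, which is 19.0, 68.5, 3.38 and 0.494 CPM in STIM KO and 80.1, 44.4, 2.31 and 2.08 CPM in CS. Replicates 1 and 2 were above replicates 3 and 4 in both genotypes, and the genotypes overlapped in each library set. Means were 22.8 ± 31.5 CPM in STIM KO and 32.2 ± 37.6 CPM in CS (SD, n = 4 each). The log2 fold change of STIM KO over CS was -0.46 (standard error 1.45; edgeR adjusted p = 0.996), with a 95% interval of -3.70 to 2.78. It became 0.50 without CS replicate 1, so the direction for ple rested on that library. Without STIM KO replicate 2 it was -2.09, in the same direction. Over both genotypes ple averaged 53.0 CPM in the first library set and 2.07 CPM in the second, a ratio of 25.6 between the library sets.

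Pu encodes GTP cyclohydrolase, which starts the synthesis of the pterin cofactor that tyrosine hydroxylase needs. Its 74 counts were too few for the filter, and 72 of them came from NM_166430.3. There were 1, 2, 21 and 24 counts in STIM KO replicates 1 to 4, against 0, 1, 9 and 16 in CS. In CPM this was 0.999, 2.91, 10.1 and 11.9 in STIM KO, against 0, 2.02, 4.16 and 6.67 in CS. Both STIM KO libraries of replicates 3 and 4 were above both CS libraries of that set, and the genotypes overlapped in replicates 1 and 2. The means, 6.48 ± 5.33 CPM in STIM KO and 3.21 ± 2.86 CPM in CS (SD, n = 4 each), differed by 0.71 on the log2 CPM scale (exact 2-sided permutation test, p = 0.4). Paired by replicate number, all 4 differences were positive (exact test over 16 sign flips, p = 0.125, the smallest they can give).

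Ddc encodes dopa decarboxylase, which makes dopamine from L-DOPA and also serotonin from its precursor. All 968 counts belonged to NM_078876.5. STIM KO replicates 1 to 4 had 157, 40, 307 and 115 counts, against 17, 8, 210 and 114 in CS, or 157, 58.3, 148 and 56.8 CPM in STIM KO and 54.5, 16.2, 97.0 and 47.5 CPM in CS. Both STIM KO libraries were above both CS libraries in replicates 1 and 2, and in replicates 3 and 4 they overlapped, since CS replicate 3 was above STIM KO replicate 4. Each STIM KO library was above the CS library of the same number, which held for 15.9% of all genes tested. Mean levels were 105 ± 55.0 CPM in STIM KO and 53.8 ± 33.3 CPM in CS (SD, n = 4 each). The log2 fold change of Ddc was 0.95 (standard error 0.62; edgeR adjusted p = 0.896) and stayed at 1.03 (standard error 0.55; edgeR adjusted p = 0.363) with the library set as a term. With the replicate number as a block the log2 fold change of Ddc was 0.995, with a 95% interval of 0.067 to 1.92 (edgeR adjusted p = 0.310). Taken within each set, mean log2 CPM of Ddc differed by 1.63 in replicates 1 and 2 and by 0.43 in the other set. The change was not shown to differ between the sets (edgeR interaction, adjusted p = 0.601).

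The gene e encodes the enzyme that joins dopamine to β-alanine, a step of cuticle tanning that also removes free dopamine. It is the member whose whole length was open to counting. STIM KO replicates 1 to 4 had 36, 8, 203 and 216 counts, against 4, 21, 156 and 201 in CS. In CPM, e was at 36.0, 11.7, 98.1 and 107 in STIM KO, against 12.8, 42.4, 72.0 and 83.8 in CS. Replicates 3 and 4 were above replicates 1 and 2 in both genotypes, by 3.51-fold on average. Within replicates 3 and 4 both STIM KO libraries were above both CS libraries, and within replicates 1 and 2 the order of the genotypes crossed. The means of 63.1 ± 46.6 CPM in STIM KO and 52.8 ± 31.8 CPM in CS (SD, n = 4 each) did not differ beyond this spread, at a log2 fold change of 0.24 (standard error 0.75; edgeR adjusted p = 0.996). Its 95% interval was -1.44 to 1.92, and -0.88 to 1.12 with the library set as a term.

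Vmat, which loads dopamine and other monoamines into synaptic vesicles, was counted too rarely for a comparison. Its 2 counted transcripts, NM_001014525.3 and NM_001274027.2, had 29 and 17 counts over the 8 libraries. Summed per gene there were 8, 0, 16 and 5 counts in STIM KO replicates 1 to 4, against 0, 4, 6 and 7 in CS. The genotypes overlapped in both library sets, with 4.55 ± 3.96 CPM in STIM KO and 3.44 ± 3.37 CPM in CS (SD, n = 4 each; exact 2-sided permutation test, p = 1).

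Of the tested members, the receptors Dop1R1 and DopEcR were those with an unadjusted p under 0.05 in the fit with the set term. Dop1R1, a D1-like receptor that raises cAMP, was counted on the transcript NM_001260163.1. It had 349, 158, 206 and 79 counts in STIM KO replicates 1 to 4, against 56, 70, 107 and 47 in CS. In CPM it stood at 349, 230.1, 99.5 and 39.1 in STIM KO, against 179, 141, 49.4 and 19.6 in CS. As for Ddc, each STIM KO library of Dop1R1 was above the CS library of the same number, and both were above both in replicates 1 and 2, whereas in replicates 3 and 4 STIM KO replicate 4 was below CS replicate 3. Over all libraries the genotypes overlapped, at 179 ± 138 CPM in STIM KO and 97.5 ± 75.3 CPM in CS (SD, n = 4 each).

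The log2 fold change of Dop1R1 was 0.90 (standard error 0.82; edgeR adjusted p = 0.970). With the library set as a term it was 0.93 with a standard error of 0.40 and a 95% interval of 0.046 to 1.82 (edgeR adjusted p = 0.270). With the replicate number as a block it was 0.915, with a 95% interval of 0.243 to 1.59 (edgeR adjusted p = 0.217). Mean log2 CPM of Dop1R1 differed by 0.82 within replicates 1 and 2 and by 0.97 within the other set. The size of the Dop1R1 difference was thus close in both sets, and it did not pass the adjustment over all genes. Dop1R1 was also 4.33 times higher in replicates 1 and 2 than in replicates 3 and 4 on average, a gap between library sets larger than that between the genotypes.

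DopEcR, a receptor that binds dopamine as well as the steroid ecdysone, showed the largest log2 fold change of the tested members. Of its 856 counts, 855 belonged to NM_001014560.2. STIM KO replicates 1 to 4 had 28, 28, 362 and 169 counts, against 0, 3, 153 and 113 in CS. These were 28.0, 40.8, 175 and 83.5 CPM in STIM KO, against 0, 6.06, 70.6 and 47.1 CPM in CS. Both STIM KO libraries were above both CS libraries in each library set, which held for 9.95% of the genes tested, and DopEcR was the only 1 of the 5 tested members with this order. Over all 8 libraries the genotypes overlapped, since CS replicates 3 and 4 were above STIM KO replicates 1 and 2. DopEcR averaged 81.8 ± 66.4 CPM in STIM KO and 30.9 ± 33.7 CPM in CS (SD, n = 4 each).

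For DopEcR the log2 fold change was 1.33 (standard error 1.03; edgeR adjusted p = 0.944). With the library set as a term it was 1.77 with a standard error of 0.56 and a 95% interval of 0.53 to 3.005 (edgeR adjusted p = 0.145). With the replicate number as a block it was 1.76, with a 95% interval of 0.424 to 3.097 (edgeR adjusted p = 0.227). The adjusted p was 0.0178 when the set term was fitted to every gene with at least 1 count, a setting chosen after seeing the data in which 460 of 13184 genes had an adjusted p under 0.05. Mean log2 CPM of DopEcR differed by 3.43 in replicates 1 and 2, where CS had 3 counts in all, and by 1.05 in the other set. Here too the change was not shown to differ between the sets (edgeR interaction, adjusted p = 0.384).

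**Figure D3:**
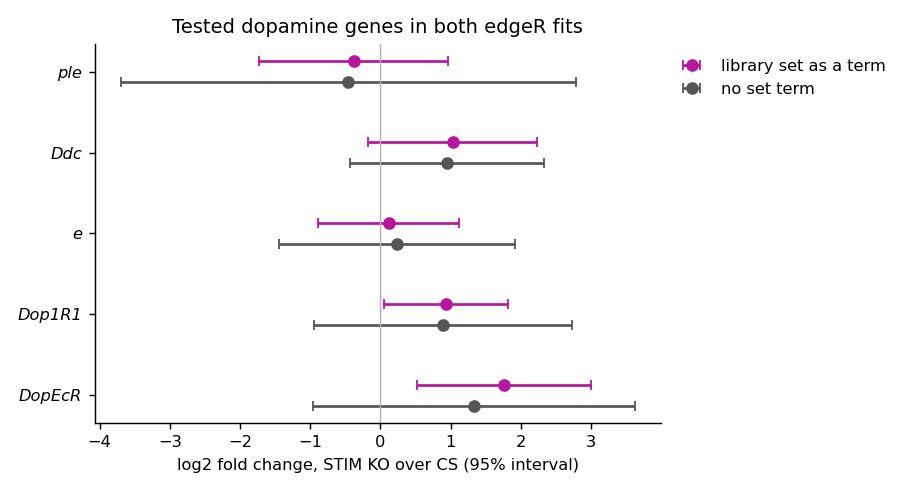
Log2 fold changes of STIM KO over CS (horizontal axis) for the 5 tested dopamine genes, with 95% intervals, in edgeR fits with the library set as a term (magenta) and without it (grey). Of these 2 fits, the intervals of Dop1R1 (0.046 to 1.82) and DopEcR (0.53 to 3.005) lie above 0 in that with the set term. None of the 5 genes passed the adjustment over all genes in these fits.

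Dop1R2 and Dop2R, the other receptors, were close to the limit of detection. Dop1R2, a second D1-like receptor, had 0, 0, 8 and 3 counts in STIM KO replicates 1 to 4, against 1, 1, 11 and 6 in CS, all on NM_079824.4. Both STIM KO libraries were below both CS libraries in replicates 1 and 2, at 0 counts against 1, and they overlapped in replicates 3 and 4. The 30 counts of Dop1R2 gave means of 1.34 ± 1.82 CPM in STIM KO and 3.20 ± 1.34 CPM in CS (SD, n = 4 each). On the log2 CPM scale Dop1R2 differed by -0.92 (exact 2-sided permutation test, p = 0.143, where 0.0286 is the smallest possible). It was lower in STIM KO in all 4 pairs of the same number (exact test over 16 sign flips, p = 0.125, the smallest they can give). The share of all genes with this order was not computed. Without STIM KO replicate 3, the STIM KO library with the most counts, the unpaired difference became -1.31, with the smallest p that 3 against 4 libraries can give (exact permutation test, p = 0.0286). With any other single library left out it was -1.05 to -0.68 (exact permutation test, p = 0.171 to 0.257). Dop2R, the D2-like receptor that lowers cAMP, had 1 count in STIM KO replicate 3 and 1 in CS replicate 2, so no difference was detectable at this depth.

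Scaled to the length of the bases that single transcripts hold, the levels followed another order than the CPM. In STIM KO, DopEcR was at 215 ± 174 CPM per kb of such bases and Ddc at 148 ± 77.2, followed by ple at 33.5 ± 46.2, e at 20.1 ± 14.8, Pu at 15.9 ± 13.1 and Dop1R1 at 15.1 ± 11.6 (SD, n = 4 each). In CS, DopEcR was at 81.2 ± 88.5 and Ddc at 75.5 ± 46.7, followed by ple at 47.3 ± 55.2, Dop1R2 at 18.4 ± 7.72, e at 16.8 ± 10.1, Dop1R1 at 8.19 ± 6.33 and Pu at 7.87 ± 7.02 (SD, n = 4 each). Vmat and Dop2R in both genotypes, and Dop1R2 in STIM KO, were below these. The CS value of Dop1R2 rests on 19 counts over 174 bases, with 1 count each in replicates 1 and 2. The DopEcR and Ddc bases lie within introns of another transcript, where unspliced RNA cannot be told apart. As the counting mode is not given, the length open to reads in short stretches is not known. The order is therefore not one of whole gene levels. Every gap between neighbours among the levels given was smaller than the SD of the higher gene, with the exception of that between Ddc and ple in STIM KO. Dop1R1 had the highest CPM of the members over the 8 libraries, at 138, and came near the middle once its 11904 bases were taken into account.

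The wider pathway was described by 6 further lists holding 40 genes, of which 33 had a count and 20 were tested. In the fit without the set, 0 of the 20 had an unadjusted p under 0.05, against 6.52% of all genes, and their median log2 fold change was 0.11, against 0.04 over all genes tested. With the set term, 2 of the 20 had one, a smaller share than the 17.0% of all genes, and both were higher in STIM KO. The median with the set term was 0.16, against 0.10 over all genes. None had an adjusted p under 0.05 in either fit. Of the 7 genes at 0 counts in all libraries, the receptors 5-HT1A, 5-HT1B and Oamb have 0 bases of their own, like DAT.

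One of these was Trhn, the neuronal tryptophan hydroxylase, which starts serotonin synthesis. Trhn averaged 352 ± 176 CPM in STIM KO and 173 ± 66.7 CPM in CS (SD, n = 4 each), a log2 fold change of 0.99 with the set term (standard error 0.35; edgeR adjusted p = 0.184). The other was dnc, the cAMP phosphodiesterase that ends receptor signals carried by cAMP. It averaged 544 ± 356 CPM in STIM KO and 315 ± 207 CPM in CS (SD, n = 4 each), with a log2 fold change of 0.75 (standard error 0.31; edgeR adjusted p = 0.243). Of the 6 tested genes of receptor signalling through cAMP, 5 had a positive value with the set term (median 0.72), as did 56.0% of all genes. They included Galphao, a G protein subunit (0.74), and Pka-R2, a regulatory subunit of protein kinase A (0.25), and the negative one was Galphai, a G protein subunit that lowers cAMP (-0.36).

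The list for the pterin cofactor and its precursors had a negative value in 4 of 5 tested genes (median -0.37), as did 44.0% of all genes. Of the 5, 0 had an unadjusted p under 0.05. Log2 fold changes here and for the lists that follow are from the edgeR fit with the set term. The negative genes were pr, Sptr, Pcd and Dhpr, and the positive one was Catsup (0.396), which is not a pterin enzyme. Pu is among the members and not in this list. This list includes pr, a pteridine enzyme, at 193 ± 23.7 CPM in STIM KO and 231 ± 112 CPM in CS, and Catsup, a regulator of tyrosine hydroxylase, at 341 ± 150 CPM in STIM KO and 283 ± 182 CPM in CS (SD, n = 4 each). Of dopamine conjugation and turnover, speck, a dopamine N-acetyltransferase, had a log2 fold change of 0.75, while b, which makes β-alanine, had 56 counts and t had 0. The list of serotonin and octopamine synthesis and uptake had 2 tested genes, Trhn and the tyrosine decarboxylase gene Tdc2 (-0.36). Receptors for serotonin, octopamine and tyramine were positive in 2 of 5 tested genes (median -0.08), with 5-HT7 at -0.27, Octbeta1R at 0.19 and Octbeta2R at 1.03, the highest value of the 20 genes (edgeR adjusted p = 0.32). In cuticle sclerotization and pigmentation, yellow-f2 had a log2 fold change of 0.14, and stw, with 55 counts, was not tested.

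**Figure D4:**
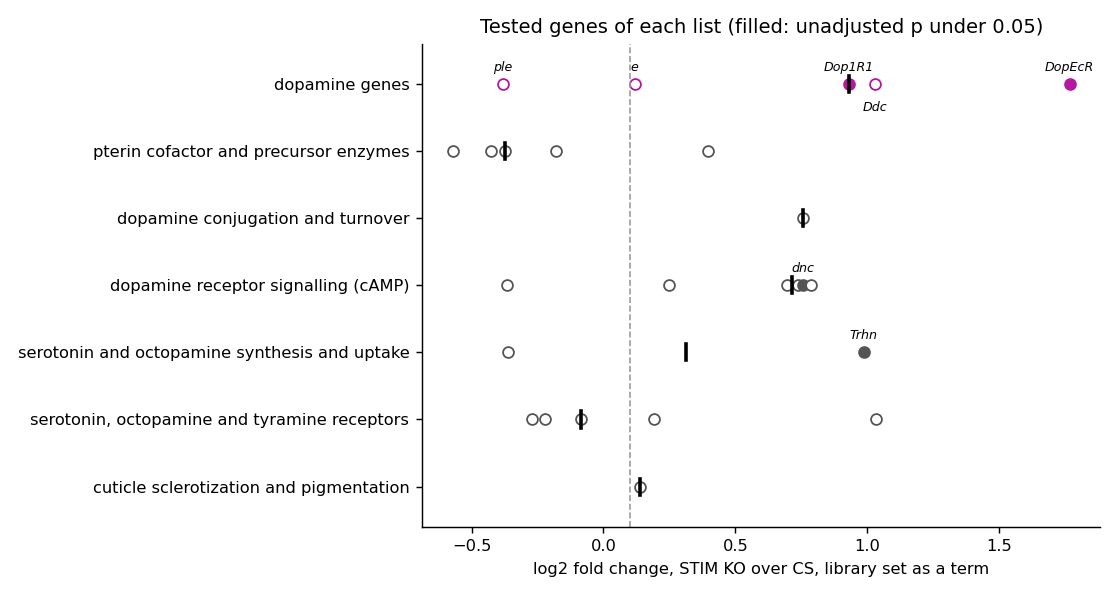
Log2 fold changes of STIM KO over CS from the edgeR fit with the library set as a term (horizontal axis) for the tested genes of each list, with filled points for an unadjusted p under 0.05, a black bar for the median of the list and a dashed line for the median of all genes tested (0.10). Filled points are Dop1R1, DopEcR, dnc and Trhn, and none of them passed the adjustment over all genes.

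Markers of other tissues varied between the libraries as well. Since e, ple and Ddc are also used in the cuticle, the 9 markers of epidermis and cuticle bear on them. Their summed level was 9.39 to 64.7 CPM in STIM KO and 41.7 to 214 CPM in CS, with Cpr65Ax1 at 0, and the 2 that were tested, Lcp65Ac and Cht5, were lower in STIM KO with the set term (edgeR log2 fold changes -2.79 and -2.40, unadjusted p = 0.00754 and 0.0285, adjusted p = 0.131 and 0.234). The 7 salivary gland markers summed to 86.0 to 1321 CPM in STIM KO and 19.2 to 123 CPM in CS. Of these, ng1, ng2 and ng3 were tested and were higher in STIM KO (edgeR log2 fold changes with the set term 2.999, 3.02 and 4.51, adjusted p = 0.104, 0.100 and 0.0844). Sgs3 and Sgs5 were at 0, and Sgs7 and Sgs8 had 1 and 4 counts over all libraries. Sgs8 was at 1.46 CPM in STIM KO replicate 2 and 6.06 CPM in CS replicate 2. The summed level thus rests almost wholly on ng1, ng2 and ng3. The part of either tissue in the values of the dopamine genes was not tested.

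Among the brain's own cell types, the 7 neuronal markers summed to 915 to 6211 CPM in STIM KO and 499 to 8567 CPM in CS. Of the 6 tested, 5 were positive with the set term (median 0.43), as were 56.0% of all genes. Among them nSyb had an unadjusted p under 0.05 at a log2 fold change of 1.44 (edgeR, adjusted p = 0.139). The 5 neuroblast markers summed to 307 to 1372 CPM in STIM KO and 1111 to 1301 CPM in CS. All 5 were negative with the set term (median -1.10), as were 44.0% of all genes. Without the set term insc was positive, at 0.54 (standard error 1.29). The marker ase was lower in STIM KO at -1.10 with the set term (edgeR, adjusted p = 0.145). The 6 glial markers summed to 835 to 2953 CPM in STIM KO and 1157 to 2313 CPM in CS. Of the 4 tested, 2 were positive with the set term (median -0.02), and wrapper was at -0.92 (edgeR, adjusted p = 0.153). Of the 5 ring gland markers (189 to 1061 CPM in STIM KO and 570.5 to 1526 CPM in CS), sad, an ecdysone synthesis enzyme, was lower in STIM KO with an adjusted p of 0.0306 in the edgeR fit with the set term at -3.28, and Akh was at 1.501 (adjusted p = 0.270). Muscle markers summed to 540 to 2816 CPM in STIM KO and 733 to 5798 CPM in CS, fat body markers to 97.6 to 149 CPM in STIM KO and 125 to 190 CPM in CS with Fbp1 and Fbp2 at 0, and haemocyte markers to 0 to 2.996 CPM in STIM KO and 0 to 6.06 CPM in CS with Hml and Pxn at 0. The part of these differences in the values of Dop1R1 and DopEcR was not tested.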

How the data were processed

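The authors aligned single 50 nt reads to dm6 with HISAT2 and deposited, per library, raw read counts per RefSeq transcript from htseq-count. The annotation and the counting mode are not given in the sources used here. The deposited table of the authors' comparison (base means, fold changes, p-values) was not used. Of 34463 features, 87 matched no gene and were kept under their own name. Counts were summed per gene. Counted reads were 3.60% to 11.6% of a library's reads, and lines for unassigned reads were left out. For CPM, the library size was the counted reads of the genes kept by the filter, times the library's TMM factor.

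edgeR 4.0.16 was used in R 4.3.3 (TMM, filterByExpr at its default minimum of 10 counts and total of 15, quasi-likelihood test, Benjamini-Hochberg adjustment over all genes tested), with limma 3.58.1 and DESeq2 1.42.0 for alternatives, and python 3.11.15 with matplotlib 3.10.9 for plots. Log2 CPM carry a prior count of 2. Members under the filter were compared by enumerating all 70 labelings (exact permutation test, 2-sided). Steps were tested on simulated data. The members, the lists and the rule for named genes were chosen with earlier results of these data known. For the members, which were chosen by name, no measured value was used. The rule names all members, genes of the lists with an unadjusted p under 0.05 in the fit with the library set, and the 2 of highest mean CPM per pathway list. Bases of single transcripts were computed from Ensembl gene models in dm6 coordinates. No RefSeq transcript was equated with an Ensembl one. Between genotypes, the deviations of same-numbered libraries from their group means correlated at 0.377 to 0.776, and those of the other number of the same set at 0.336 to 0.715. Those across sets correlated at -0.788 to -0.385. The numbers thus carry the library set, and a pairing beyond the set was not shown. No 2 libraries agreed within sampling noise (lowest chi-square per degree of freedom, 7.37). The labels call the libraries biological replicates. Floors cover counting error only, since reads carry no molecular identifiers.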

Additional observations from a re-analysis of the deposited data

How the results depend on the processing

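No dopamine gene or transcript had an adjusted p under 0.05 under any alternative but 1, the set term fitted to every gene or transcript with at least 1 count, where 1 gene (DopEcR) and 1 transcript did. Over all genes, where 0 passed, DESeq2 gave 78, library size only 2, every gene with at least 1 count 7, CPM above 1 in 2 libraries 2, the replicate block 16, the library set as a term 39, limma voom with quality weights 35, and the set term with every gene 460. For transcripts these numbers were 85, 2, 30, 2, 14, 39, 26 and 481, again with 0 without them. The replicate block, and the paired exact test (added after seeing the data) for members too low for the fit, changed no call for a dopamine gene. Of 167 values of single members under alternatives, 12 changed sign. With 1 library left out, ple lay between -2.09 and 0.50, e between -0.13 and 0.55, Vmat between -0.25 and 0.81 and Dop2R between -0.32 and 0.10. In replicates 1 and 2 only, e was at -0.18 and Vmat at -0.0067, in replicates 2 to 4 Vmat was at -0.59, and in replicates 3 and 4 only Dop2R was at 0.21. The cause of these changes was not tested. Ddc, Pu, Dop1R1 and DopEcR stayed positive and Dop1R2 negative under every alternative run. Few counts limit Pu, Vmat, Dop1R2 and Dop2R, and DAT cannot be measured in these counts.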
